A study of Homo sapiens with 13 samples.

Results

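The HOX cluster genes were examined in hFOB 1.19 osteoblasts. The members were the rows of the raw count table whose Ensembl identifier mapped to a protein-coding gene named HOXA, HOXB, HOXC or HOXD with a paralog number. The 38 members described, among 43836 rows, were 10 in the HOXA, 10 in the HOXB, 9 in the HOXC and 9 in the HOXD cluster. The rule picked members by name and not by expression value, but it was chosen with earlier results of these data known.

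Messenger RNA was sequenced in 12 libraries that the labels placed in 5 groups of one immortalized human fetal osteoblast line, which grows through a temperature-sensitive viral T antigen. The positive control group (PC, 2 libraries) received medium with 10% fetal bovine serum, and the negative control group (NC, 2 libraries) received serum-free medium. The serum-free groups RES (resveratrol, 3 libraries), POG (peonidin-3-O-glucoside, an anthocyanin, 3 libraries) and DEG (2 libraries) were each given a compound at 1 µg/mL, and the labels did not spell out the abbreviation DEG. Per the study's methods, both controls carried the DMSO vehicle. The labels did not say whether the libraries of a group came from separate cultures, so the p-values measure the spread between these libraries, which may be technical.

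HOX genes encode homeodomain transcription factors that give cells their position along the body axis, and the clusters hold their genes in the order in which they are used from head to tail. Low paralog numbers pattern anterior structures, and high paralog numbers pattern the posterior trunk and the distal limb. Skeletal cells keep much of the HOX code of the site they came from, and retinoic acid, Polycomb complexes and Trithorax complexes are the classic regulators of the clusters. HOX proteins choose their DNA sites together with TALE cofactors of the PBX, MEIS and PKNOX families.

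On the hg38 build, the members described of the HOXA cluster lay on the minus strand of chr7:27100354-27200091, HOXB on the minus strand of chr17:48528526-48728750, HOXC on the plus strand of chr12:53938831-54056030 and HOXD on the plus strand of chr2:176092721-176190907. The called members that fell most with serum, HOXD10 and HOXD11, each have paralogs in other clusters, so the parts of the homeobox that encode the DNA-reading helix are shown for paralog numbers 10 and 11. Each line gives codons 42 to 58 of the 60-codon homeobox, read 5′ to 3′ on the coding strand of GENCODE v44 transcripts, and the capitals mark codons 48 to 53 in the middle of the recognition helix.
HOXA10: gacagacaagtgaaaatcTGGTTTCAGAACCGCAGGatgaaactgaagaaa
HOXC10: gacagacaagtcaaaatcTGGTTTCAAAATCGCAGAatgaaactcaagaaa
HOXD10: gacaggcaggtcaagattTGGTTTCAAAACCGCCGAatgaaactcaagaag
HOXA11: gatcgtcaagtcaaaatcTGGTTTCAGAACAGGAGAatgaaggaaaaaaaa
HOXC11: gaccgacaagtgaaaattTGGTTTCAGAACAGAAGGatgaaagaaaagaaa
HOXD11: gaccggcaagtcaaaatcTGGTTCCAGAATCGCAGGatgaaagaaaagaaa

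A homeobox was found in all 38 members, and its 18 core bases were spelled in 29 ways. Members of the same paralog number matched at a median of 81.7% of homeobox bases over 40 pairs (69.4% to 90.6%), while pairs that shared neither number nor cluster matched at 60%. Over whole transcripts, the longest exact run shared by paralogs of the same number was 62 bases, between HOXB3 and HOXD3, which is shorter than the 150-base reads. HOXC4 and HOXC6 shared a run of 484 bases from a common exon, so reads there could belong to either gene. Of the 38 members, 16 shared exonic bases with a gene on the same strand and 19 with a gene on the opposite strand. The strand setting of the counting was not stated, so reads of a member and its antisense partner could not be told apart.

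Library totals ran from 38464619 to 51416358 counted reads, and the members took 0.0504% to 0.0556% of them. The osteoblast and mesenchymal markers were led by COL1A1 (2463 to 2869 CPM, reads per gene relative to the TMM-scaled size of the library) and VIM. RUNX2, the osteoblast master regulator, lay at 44.3 to 51.6 CPM. The osteoblast genes SP7 (0.00 to 0.181 CPM) and IBSP (0.00 to 0.0224 CPM) were near 0. BGLAP (0.425 to 2.00 CPM) and SPP1 (0.955 to 2.34 CPM) were low but had reads in every library. Defining markers of blood (CD3E, 0 in every library) and adipocytes (ADIPOQ, up to 0.0227 CPM) were at or near 0, as was the epithelial marker EPCAM (up to 0.545 CPM), whereas the keratin KRT8 reached 181 to 285 CPM. Of the endothelial markers, TEK lay at 33.1 to 56.8 CPM, PECAM1 and KDR at no more than 2.47 and CDH5 at no more than 0.112. The summed osteoblast and mesenchymal, endothelial and epithelial markers each separated every other group from NC without overlap. The osteoblast and mesenchymal sum was 7363 to 7437 CPM in NC and 8475 to 8691 in PC. It was 7048 to 7202 in RES, 6898 to 6947 in POG and 6902 to 6935 in DEG. In NC the endothelial sum (mostly TEK) was 42.3 to 44.1 CPM and the epithelial sum (mostly KRT8 and KRT18) 397 to 406. They were 56.5 to 59.7 and 463 to 506 in PC and 38.1 to 38.6 and 364 to 369 in DEG. In both, RES lay above NC and POG below it (values beside their comparison). The part of these markers in the differences between groups was not tested. In bulk RNA, fewer cells of a type and less RNA per cell cannot be told apart.

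All 4 clusters were expressed, and the 3 most abundant HOX transcripts had paralog numbers 2, 6 and 8. Levels between genes were compared per kilobase of exon (RPKM, computed from the TMM-scaled counts and GENCODE v44 exon lengths). HOXB2, which patterns the hindbrain and facial motor neurons, led with 24.3 RPKM ± 0.829 (SD over 12 libraries), followed by HOXC6 with 16.8 ± 0.613 and HOXC8 with 14.5 ± 1.30. HOXA9 (11.8 RPKM), HOXC9 (10.9), HOXD9 (10.6) and HOXC4 (10.49) came next. The range of HOXB2 over the libraries did not overlap that of HOXC6, but from HOXC6 down to HOXD4 at rank 22, and from HOXC11 at rank 23 down to HOXC5 at rank 29, the range of each gene overlapped that of the next. HOXB9 (0.185 RPKM) and HOXA13 (0.101 RPKM) were the lowest members that passed the filter on low counts.

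The paralog 9 genes were expressed in 3 clusters but not equally in the 4 of them. HOXA9, HOXC9 and HOXD9 lay between 10.6 and 11.8 RPKM, and HOXB9 lay at 0.185 RPKM with no library above 0.292. The paralog 8 genes were split in the same manner, with HOXC8 at 14.5 RPKM, HOXD8 at 7.99 and HOXB8 at 0.0197. From number 9 to number 13 the level fell step by step in the HOXA cluster, from HOXA9 (11.8 RPKM) through HOXA10 (9.48) and HOXA11 (3.203) to HOXA13 (0.101). In the HOXD cluster the level fell from HOXD9 (10.6) through HOXD10 (8.82) and HOXD11 (2.76) to HOXD12 (0.00442), with HOXD13 at 0.0285 and with overlapping ranges of HOXD9 and HOXD10. By cluster, HOXC made up 30.7% of the summed HOX RPKM (median over libraries, 29.6% to 31.6%), HOXA 25.8%, HOXB 24.8% and HOXD 18.9% (18.1% to 20.7%).

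**Figure D1:**
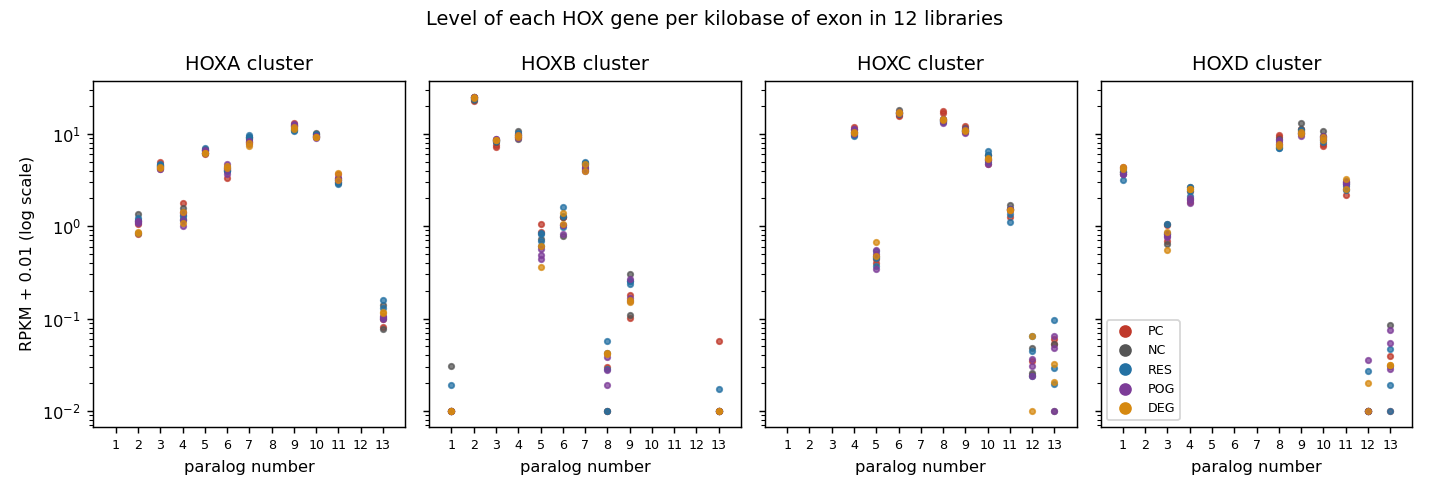
Level of the 38 HOX genes in RPKM + 0.01 on a log axis, by cluster (panels) and paralog number (x axis). Each point is a library and its color the group; the points of a gene lie close together while genes span HOXB2 at 24.3 RPKM to HOXB1 at 0.00248.

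The 7 members that failed the filter were HOXB1, HOXB8, HOXB13, HOXC12, HOXC13, HOXD12 and HOXD13, 5 of them numbered 12 or 13. Their reads over all 12 libraries together were 3 for HOXB1, 24 for HOXB8, 7 for HOXB13, 44 for HOXC12, 39 for HOXC13, 6 for HOXD12 and 35 for HOXD13. A library with 0 reads of a gene allows up to 3 reads, that is 0.0607 to 0.0775 CPM depending on the library, by counting error only. The 3 HOXB1 reads came from 2 libraries, and the 7 HOXB13 reads from 2 libraries, 6 of them in a PC library. These members entered no test.

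Within a gene the 12 libraries were close. Over the 31 members that passed the filter, the highest library was 1.11 to 3.18 times the lowest, with a median of 1.37, and 21 members stayed under 1.5. HOXB2 was the steadiest at 1.11, and HOXB9, which has few reads, the widest at 3.18. With all 5 groups in one edgeR quasi-likelihood test, 9 of the 31 members differed somewhere at a false discovery rate (FDR) under 0.05, beside 55.8% of all 17092 genes tested. The 9 were HOXA7, HOXA9, HOXB3, HOXB5, HOXC4, HOXC8, HOXD8, HOXD9 and HOXD10.

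With serum, 3 HOX genes were higher and 5 lower as compared with serum-free negative controls, with log2 fold changes between −0.40 and 0.27. HOXC8, HOXD8 and HOXA11 were higher in PC, and HOXD10, HOXD11, HOXC10, HOXB3 and HOXC6 were lower. That was 8 of 31 members (25.8%), beside 42.4% of all genes tested in the comparison (edgeR exact test, FDR under 0.05, Benjamini-Hochberg over 17092 genes). Of all genes, 21.4% were called higher and 20.9% lower. The median log2 fold change was −0.04 over the members and −0.01 over all genes, and the median absolute change was 0.15 and 0.21.

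HOXC8, which patterns the lower thoracic skeleton and the brachial motor neurons, was measured at 42.2 and 40.1 CPM in PC, 35.1 and 33.1 in NC, 32.6, 32.8 and 34.3 in RES, 31.3, 34.0 and 34.8 in POG and 34.7 and 34.4 in DEG. Both PC libraries lay above each of the 10 serum-free libraries. HOXC8 rose by 0.27 on the log2 scale with serum (SE 0.0576, FDR 2.29e-05, edgeR exact test), or 1.21-fold, and this call held in each of the 11 alternative fits. Its exons overlap no other annotated gene.

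HOXD8, another gene of paralog number 8, had 25.4 and 24.5 CPM in PC, 23.1 and 19.7 in NC, 18.3, 18.9 and 18.3 in RES, 20.3, 21.4 and 22.4 in POG and 19.6 and 20.2 in DEG. The PC libraries were the highest of the 12, and the NC libraries lay apart from each other. HOXD8 rose with serum by 0.22 (SE 0.0718, FDR 0.00728), a call lost without NC replicate 2 (log2 fold change 0.12, FDR 0.301) and without PC replicate 1 (0.20, FDR 0.0504). On its exons, 24.4% of bases lie opposite the antisense gene HOXD-AS2.

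HOXA11, a gene of the forearm and of bone-forming periosteal cells, had 9.75 and 8.94 CPM in PC, 7.72 and 7.92 in NC, 8.48, 7.51 and 7.90 in RES, 8.77, 8.57 and 8.39 in POG and 8.50 and 10.1 in DEG. The PC libraries lay above those of NC, but the highest value of all was a DEG library. HOXA11 rose with serum by 0.26 (SE 0.104, FDR 0.0360), and the call was lost in 7 of 11 alternative fits, with an FDR of up to 0.257 without PC replicate 1. Bases opposite HOXA11-AS made up 27.2% of its exons.

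HOXD10, which patterns hindlimb motor neurons and the limb, was measured at 18.4 and 19.3 CPM in PC, 26.3 and 23.4 in NC, 22.3, 20.2 and 21.3 in RES, 21.8, 23.5 and 22.7 in POG and 21.4 and 22.7 in DEG. Both PC libraries lay under every serum-free library. HOXD10 fell by 0.40 on the log2 scale with serum (SE 0.0719, FDR 3.16e-07, edgeR exact test), the lowest FDR among the members, and this call held in all 11 alternative fits.

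Its neighbor HOXD11, a patterning gene of the forearm and lower spine, had 4.59 and 5.29 CPM in PC, 6.25 and 6.44 in NC, 5.16, 5.74 and 6.10 in RES, 5.99, 6.26 and 6.30 in POG and 5.27 and 6.79 in DEG. PC lay below NC without overlap, and one DEG library lay within the range of RES and the other above all other libraries. HOXD11 fell with serum by 0.36 (SE 0.130, FDR 0.0151), and the call was lost without PC replicate 1 (FDR 0.197) and without NC replicate 2 (FDR 0.0981). HOXD10 and HOXD11 share exonic bases on the same strand, 18.2% of those of HOXD10 and 21.4% of those of HOXD11, so their values are not fully separate.

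HOXC10, a gene of the hindlimb and lumbar region, had 12.2 and 11.1 CPM in PC, 14.1 and 13.8 in NC, 11.7, 15.2 and 13.96 in RES, 12.3, 11.2 and 12.8 in POG and 12.8 and 12.6 in DEG. It fell with serum by 0.26 (SE 0.0986, FDR 0.0252), but PC overlapped RES and POG, and the call was lost with DESeq2 (FDR 0.0571), without PC replicate 2 (FDR 0.156) and without either NC library. The 3 called members that fell most with serum were thus of paralog number 10 or 11, and of these HOXD10 and HOXD11 share exonic bases. Other members of these numbers did not follow. HOXA11 was called higher (above), and HOXC11 (−0.20) was not called. HOXA10 was not called either (36.2 and 33.9 CPM in PC, 38.02 and 36.6 in NC).

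HOXB3 and HOXC6 fell less. HOXB3, a hindbrain and neck gene, had 53.8 and 56.1 CPM in PC, 60.5 and 61.7 in NC, 62.6 to 63.4 in RES, 64.2 to 65.1 in POG and 63.5 and 63.2 in DEG. The PC libraries lay under all others, and HOXB3 fell with serum by 0.15 (SE 0.0438, FDR 0.00326), a call lost without PC replicate 1 (FDR 0.0552) and without NC replicate 2 (FDR 0.0622). HOXC6, a thoracic gene, had 54.8 and 54.3 CPM in PC, 62.0 and 58.6 in NC, 56.6 to 58.9 in RES, 57.96 to 59.5 in POG and 60.01 and 58.3 in DEG. HOXC6 fell with serum by 0.14 (SE 0.0458, FDR 0.00916), and without NC replicate 1 the call was lost (−0.10, FDR 0.184). With dispersions from PC and NC alone, neither HOXB3 nor HOXC6 was called (FDR 0.0624 and 0.0874).

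By paralog number, 8 of the 11 tested members numbered 9 and above lay below 0 in PC against NC, as did 10 of the 20 numbered 1 to 8. The median log2 fold change was −0.20 for numbers 9 to 13, with 1 member called higher and 3 lower, −0.02 for numbers 4 to 8 with 2 higher and 1 lower, and −0.01 for numbers 1 to 3 with 1 lower. Summed over a cluster, the members came to 144.8 CPM ± 6.56 (SD, n = 2) for HOXA in PC and 144 ± 2.77 (n = 2) in NC. The HOXD sums were 82.6 ± 1.81 in PC and 88.1 ± 8.47 in NC, a log2 ratio of −0.09 with overlapping libraries. The HOXC sums also overlapped (162.6 ± 6.95 and 162.8 ± 4.53). HOXB was the only cluster whose PC and NC libraries did not overlap, at 142.8 ± 2.24 in PC and 150.04 ± 4.002 in NC, a log2 ratio of −0.07. Sums also lay apart from NC for HOXB, HOXC and HOXD in RES, HOXA and HOXB in POG, and HOXA, HOXC and HOXD in DEG. With so few libraries, groups can separate in this way without a true difference.

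**Figure D2:**
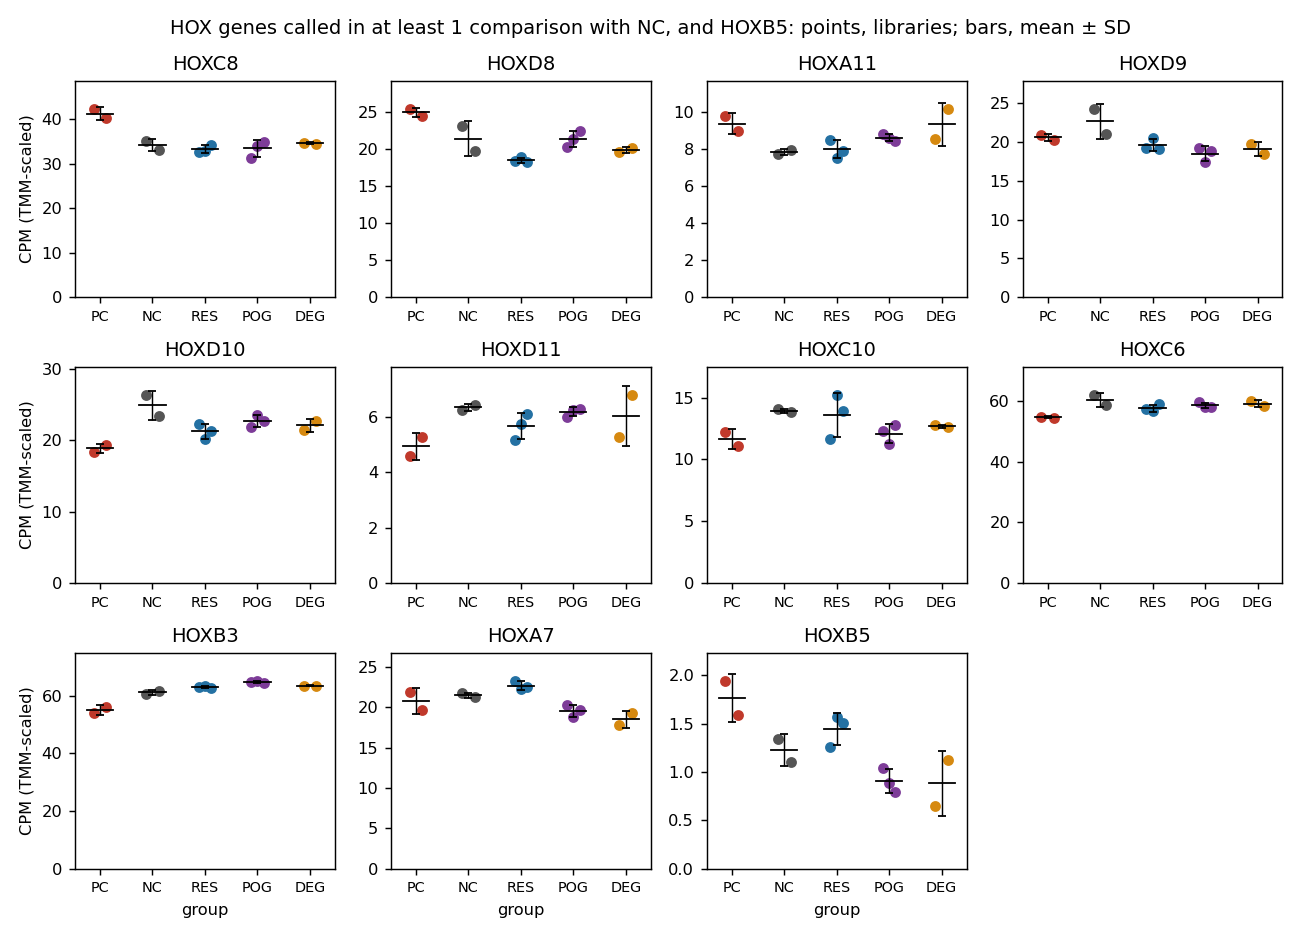
TMM-scaled CPM of 11 HOX genes by group, with a point per library and bars for the mean ± SD. In the HOXC8 panel both PC points (42.2 and 40.1) lie above all serum-free points, in the HOXD10 panel both PC points (18.4 and 19.3) lie below them, and in the HOXD9 panel NC replicate 1 (24.2) lies above all others.

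The RefSeq promoters (GRCh38.p14, 250 bases before to 50 after the start) of the HOXD genes that changed with serum are shown, since HOXD10 and HOXD11 fell and HOXD8 of the same cluster rose. All are on the plus strand, and capitals mark matches to a CCAAT box (CCAAT), a GC box (GGGCGG) or a HOX-PBX site (TGATTNAT) on either strand.
HOXD11, chr2:176107030-176107329: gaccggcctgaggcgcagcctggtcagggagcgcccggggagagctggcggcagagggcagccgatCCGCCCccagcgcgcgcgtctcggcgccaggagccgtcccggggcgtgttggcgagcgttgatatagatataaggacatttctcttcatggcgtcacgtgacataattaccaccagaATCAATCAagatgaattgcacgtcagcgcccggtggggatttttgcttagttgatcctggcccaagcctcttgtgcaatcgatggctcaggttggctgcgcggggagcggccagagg
HOXD10, chr2:176116528-176116827: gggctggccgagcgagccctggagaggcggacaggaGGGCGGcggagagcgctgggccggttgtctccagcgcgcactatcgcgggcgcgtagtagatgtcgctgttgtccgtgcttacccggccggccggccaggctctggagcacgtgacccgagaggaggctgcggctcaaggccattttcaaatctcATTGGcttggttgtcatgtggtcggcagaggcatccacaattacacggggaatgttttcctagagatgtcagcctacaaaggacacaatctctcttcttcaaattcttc
HOXD8, chr2:176129455-176129754: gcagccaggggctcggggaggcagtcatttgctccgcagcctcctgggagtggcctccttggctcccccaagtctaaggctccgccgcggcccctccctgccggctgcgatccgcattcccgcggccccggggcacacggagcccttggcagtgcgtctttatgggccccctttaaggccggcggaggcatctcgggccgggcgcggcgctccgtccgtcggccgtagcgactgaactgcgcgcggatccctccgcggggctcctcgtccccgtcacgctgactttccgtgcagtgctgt

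The HOXD11 promoter held a GC box and the HOX-PBX letters, HOXD10 a GC box and a CCAAT box, and HOXD8 none of the motifs searched. No 2 marked motifs overlapped in these windows. Promoters were available for 20 members, in 26 different windows, 7 of them alternative starts of HOXA3. A CCAAT box stood in 17 of the 26 windows (65.4%) and in 34.6% of all 34943 promoters of the same length, a GC box in 50% and 44.9%, a TATA box (TATAAA) in 19.2% and 11.6% and the HOX-PBX letters in 7.69% and 2.82%. A retinoic acid response element as a direct repeat, a cAMP response element (TGACGTCA) and an E2F site (TTTCCCGC) were matched in none of the 26. Over all promoters they stood in 0.00572%, 1.84% and 1.62%, so 26 windows are too few to show a lack of them. A match is a description of the letters and not a bound site.

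With resveratrol, 3 neighbors of the HOXD cluster, HOXD8, HOXD9 and HOXD10, were lower as compared with negative controls. The 3 members called were 9.68% of the 31, beside 11.2% of all genes tested, of which 4.94% were higher and 6.21% lower (edgeR exact test, FDR under 0.05). The median log2 fold change was −0.04 over the members and 0.00 over all genes.

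HOXD9 had 19.2, 20.5 and 19.0 CPM in RES, 24.2 and 21.0 in NC, 20.9 and 20.2 in PC, 19.2, 17.5 and 18.8 in POG and 19.7 and 18.4 in DEG. Both NC libraries lay above the other 10. The log2 fold changes against NC were −0.21 in RES (SE 0.0682, FDR 0.0305), −0.29 in POG (SE 0.0684, FDR 0.000613) and −0.25 in DEG (SE 0.0761, FDR 0.0197), all called by the edgeR exact test. These 3 comparisons share the NC libraries. HOXD9 overlaps no other annotated exon.

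For HOXD10, whose libraries are given above, RES lay at 20.2 to 22.3 CPM under both NC libraries, a fall of 0.23 (SE 0.0649, FDR 0.00957). HOXD8 fell with RES by 0.21 (SE 0.0676, FDR 0.0267). The RES calls of HOXD8, HOXD9 and HOXD10 were lost in 6, 7 and 2 of 12 alternative fits. HOXD11, the next gene, was not called (log2 fold change −0.16, interval −0.40 to 0.08). The HOXD sum was 78.0 CPM ± 0.911 (SD, n = 3) in RES, against 94.1 and 82.1 in the 2 NC libraries.

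The NC libraries lay apart at the HOXD cluster. NC replicate 1 exceeded NC replicate 2 for 6 of the 7 HOXD members tested, 6 of 7 in HOXC, 4 of 7 in HOXB and 5 of 10 in HOXA. Without NC replicate 1, no member was called in RES, POG or DEG against NC by the exact test, while 5.29%, 8.04% and 5.36% of all genes were. HOXD9 was then at −0.10 in RES (FDR 0.609), −0.19 in POG (FDR 0.187) and −0.14 in DEG (FDR 0.480), and HOXD10 at −0.14 in RES (FDR 0.403). Without NC replicate 2, HOXD8, HOXD9 and HOXD10 were called in RES, and HOXD9 in POG and DEG. The DEG call of HOXD9 was also lost without DEG replicate 2 (FDR 0.276).

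POG differed from negative controls at 1 HOX gene, HOXD9 (above), which was 3.23% of the members beside 14.5% of all genes tested (5.93% higher and 8.57% lower). The log2 fold changes of all 31 members ran from −0.43 to 0.13, with 6 above 0, and their median was −0.07 (0.00 over all genes). DEG differed at 2, HOXD9 and HOXA7, or 6.45% beside 9.63% of all genes (3.52% higher and 6.11% lower). HOXA7, a gene of the thoracic region, had 17.8 and 19.3 CPM in DEG, 21.7 and 21.3 in NC, 22.0 and 19.7 in PC, 23.3, 22.2 and 22.5 in RES and 20.2, 18.8 and 19.6 in POG. DEG lay below NC and RES, and RES above all other serum-free groups. HOXA7 fell with DEG by 0.21 (SE 0.0727, FDR 0.0434), and the call was lost in 8 of 11 alternative fits (FDR up to 0.425). Bases opposite HOXA-AS3 made up 62.5% of its exons.

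**Figure D3:**
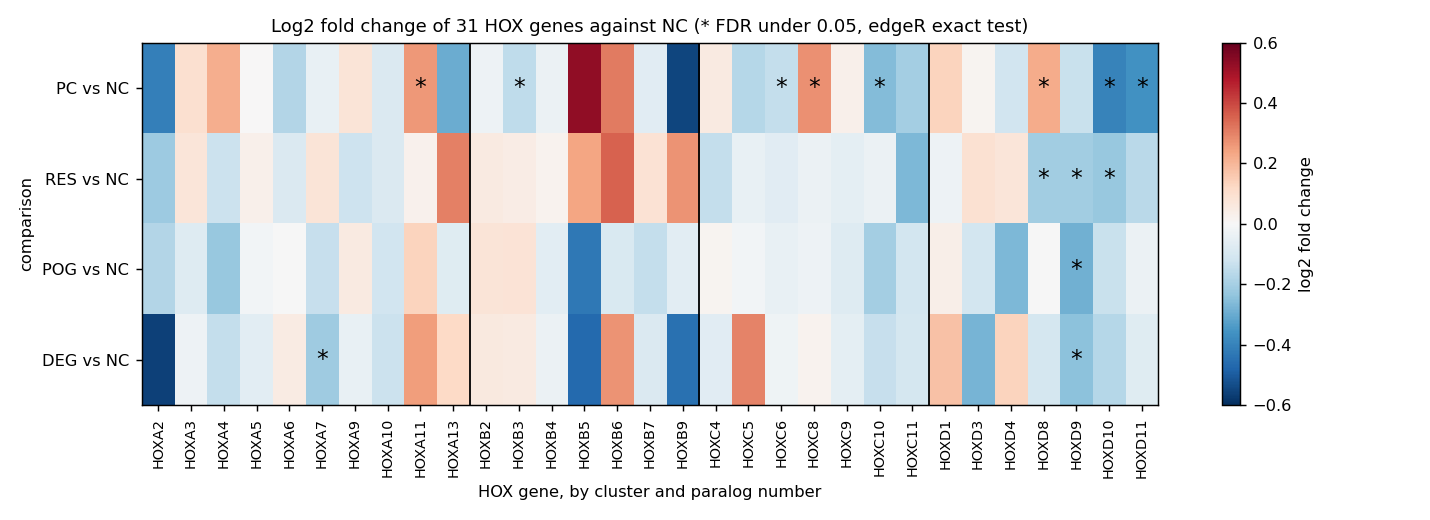
Log2 fold change of the 31 tested HOX genes (x axis, by cluster and paralog number) in PC, RES, POG and DEG, each against NC, as color; an asterisk marks an FDR under 0.05 in the edgeR exact test. The 8 asterisks of PC, 3 of RES, 1 of POG and 2 of DEG are spread over the clusters in PC, and 5 of the 6 in the serum-free rows are at HOXD8, HOXD9 or HOXD10.

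RES and POG, set against each other at the same dose, differed at more HOX genes than either did from negative controls. The same held over all genes, with 27.9% called between them, 11.2% in RES against NC and 14.5% in POG against NC. RES and POG had 3 libraries each and NC had 2. POG was lower at HOXA3, HOXA7, HOXB5 and HOXB6 and higher at HOXA9, HOXC4 and HOXD8. These 7 members (22.6%) stood beside 27.9% of all genes tested, 13.7% higher and 14.1% lower. The 4 lower members were HOXA and HOXB genes numbered 3 to 7. Summed over their 4 markers each, the endothelial list came to 35.3 to 37.3 CPM in POG and 52.8 to 59.5 in RES, and the epithelial list to 338 to 348 CPM in POG and 443 to 454 in RES.

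HOXA7, at 18.8 to 20.2 CPM in POG and 22.2 to 23.3 in RES, was lower by −0.21 (SE 0.0569, FDR 0.00153). HOXA9, a gene of the posterior trunk and of blood progenitors, had 38.2, 36.8 and 37.4 CPM in POG and 32.8, 33.6 and 33.0 in RES, and was higher by 0.18 (SE 0.0455, FDR 0.00111). HOXD8, at 20.3 to 22.4 CPM in POG and 18.3 to 18.9 in RES, was higher by 0.21 (SE 0.0596, FDR 0.00354). The libraries of these 3 members did not overlap, and each call held in all 13 alternative fits. Libraries did not overlap for 42.1% of all genes.

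HOXB5, a gene of neural crest and lung, had 1.04, 0.884 and 0.796 CPM in POG, 1.26, 1.57 and 1.503 in RES and 0.646 and 1.12 in DEG, on 25 to 96 reads per library over the 12 libraries. RES lay above both other compounds without overlap. The log2 fold change was −0.67 in POG (SE 0.229, FDR 0.0123, lost in 2 of 13 alternative fits) and −0.70 in DEG (SE 0.267, FDR 0.0340, lost in 6 of 12) against RES, which were the only called member changes above 0.5 in the 7 comparisons. Without DEG replicate 1 the second was −0.36 (FDR 0.559). HOXB6 (−0.44, FDR 0.0413) and HOXC4 (0.16, FDR 0.0218) were called while their libraries overlapped, and HOXA3 was lower by −0.15 (FDR 0.0373) at 17.8 to 18.1 CPM in POG against 19.6 to 20.3 in RES. These 3 calls were lost in 7, 4 and 8 of 13 alternative fits. Without RES replicate 1, HOXB6 was at −0.25 (FDR 0.376).

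**Figure D4:**
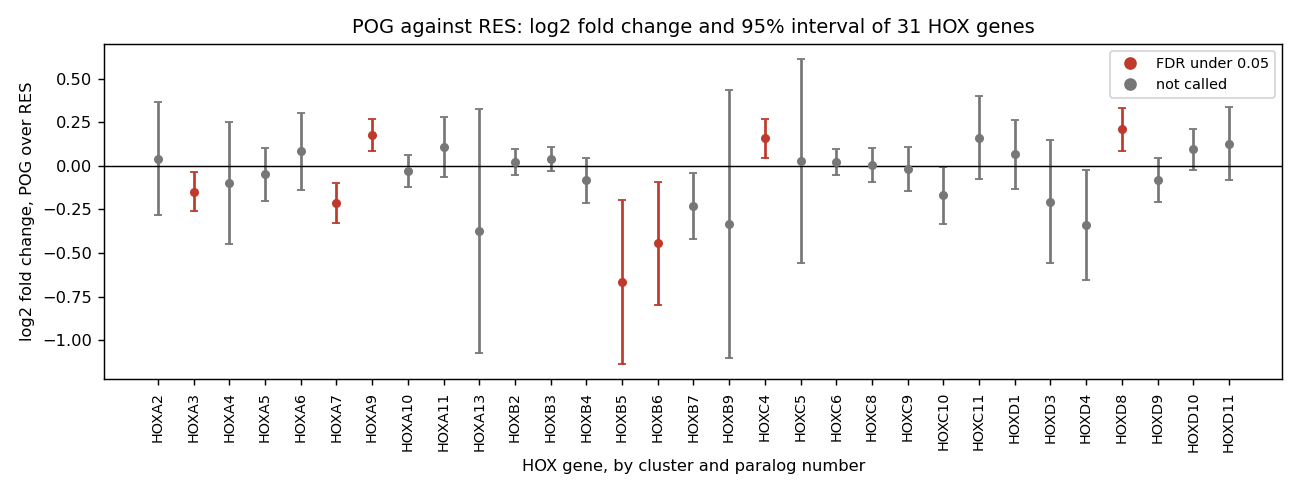
Log2 fold change of POG over RES (y axis) for 31 HOX genes by cluster and paralog number, with 95% intervals of the quasi-likelihood fit; red marks an FDR under 0.05. The interval of HOXA7 lies wholly below 0 and those of HOXA9 and HOXD8 wholly above it, while HOXB5 at −0.67 has the lowest estimate and a wide interval.

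DEG was lower than RES at 2 members, HOXB5 (above) and HOXA7, or 6.45% beside 21.2% of all genes (10.3% higher and 10.8% lower). HOXA7 was lower by −0.29 (SE 0.0657, FDR 0.000195), and the call was lost without DEG replicate 1 alone (FDR 0.0510). DEG and POG differed at 0 of the 31 members in the edgeR exact test, beside 1.05% of all genes (0.55% higher and 0.497% lower), and at 0 also with the quasi-likelihood test and DESeq2. HOXD4 and HOXA2 had an unadjusted p under 0.05. The estimates of DEG over POG ran from −0.38 to 0.40, and the interval lay within ±0.5 for 23 of 31 members, all 16 at 10 CPM or more among them, so larger differences were not shown to be absent for the low members. For the 16 members at 10 CPM or more, the half-width of the interval had a median of 0.13 in that comparison and 0.14 in PC against NC, and for the 15 below 10 CPM it was 0.38 and 0.40.

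Related genes were described from fixed lists. Of the 20 long noncoding RNAs of the clusters listed, HAGLROS, HOXC-AS2 and HOXC-AS3 were matched and the others were not analysed here. HOXC-AS2 is antisense to parts of HOXC9 (9.78% of its exonic bases) and HOXC6 (2.11%). It had 1.44 and 0.877 CPM in PC, 2.66 and 1.76 in NC, 1.68, 1.54 and 1.59 in RES, 1.89, 1.70 and 1.81 in POG and 0.801 and 1.04 in DEG. It fell by 0.91 with serum (SE 0.252, FDR 0.000840) and by 1.26 with DEG (SE 0.269, FDR 7.10e-05) against NC. The serum call was lost without NC replicate 1 (−0.59, FDR 0.112) and without PC replicate 2 (−0.61, FDR 0.0702). HOXC-AS2 was also lower in DEG than in RES (−0.80, FDR 0.0114) and POG (−0.96, FDR 0.0183). Both calls were lost without DEG replicate 1, and the call against POG held in 6 of 12 alternative fits. HOXC9 and HOXC6 themselves were at −0.06 and −0.03 in DEG against NC and were not called. HAGLROS and HOXC-AS3 were not called in any of the 7 comparisons.

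TALE cofactors bind DNA beside HOX proteins. The list of 9 genes described also held PBXIP1, which is a partner of PBX proteins and not itself a TALE protein. Of the 9, 6 (66.7%) were lower in PC, PBXIP1 among them, beside 20.9% of all genes. The median log2 fold change was −0.24 over the list and −0.01 over all genes. PKNOX2 fell by 0.58 (SE 0.0902, FDR 2.46e-09), PBXIP1, which binds PBX proteins and restrains them, by 0.51 (SE 0.0453, FDR 5.23e-25) and MEIS3 by 0.46 (SE 0.0776, FDR 3.37e-08). PBX3 and PBX4 were not called and had higher means in PC (34.3 and 0.806 CPM) than in NC (32.2 and 0.485). RES lowered 2 (22.2%, beside 6.21% of all genes lower), MEIS1 by 0.16 (FDR 0.0111) and PBXIP1 by 0.14 (FDR 0.0211), POG gave no call by the exact test or in its alternatives, beside 14.5% of all genes, and DEG lowered PBXIP1 alone (−0.16, FDR 0.0162), 11.1% beside 9.63%. Of these calls, MEIS1 and PBXIP1 in RES were lost in 3 and 5 of 12 alternative fits and PBXIP1 in DEG in 3 of 11. Leaving out 1 library or changing the method left 5 or 6 lower in PC, and 0 to 2 in RES.

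Polycomb group genes, which keep silent HOX genes compacted, were described at 33 genes. In PC 2 were higher (PHC2 and RNF2) and 11 lower than in NC (5 to 14 lower over the alternative fits), led by CBX7 (−0.72, FDR 9.25e-29), PHC3 (−0.42, FDR 1.74e-09) and PHF1 (−0.32, FDR 3.91e-14). RES had 0 higher and 4 lower (CBX2, EZH2, PHF1 and PHF19; 0 to 5 lower over the alternative fits), POG 1 higher (EED) and 3 lower (CBX2, CBX6 and PHC2), and DEG 2 higher (EED and PHF1) and 1 lower (PHC2). The shares called were 12.1% in RES, 12.1% in POG and 9.09% in DEG, beside 11.2%, 14.5% and 9.63% of all genes. EZH2, the methyltransferase of the complex, fell by 0.13 in RES (FDR 0.0108), a call lost in 5 of 12 alternative fits, among them those without NC replicate 1 (FDR 0.0716) and without NC replicate 2 (FDR 0.181), and was 0.22 higher in POG than in RES (FDR 3.20e-09). Of 23 Trithorax and activating chromatin genes, 1 was higher (DOT1L) and 10 were lower in PC. Among the lower were KDM6B, which removes the Polycomb mark (−0.46, FDR 4.61e-24), ASH1L (−0.37, FDR 5.94e-07) and KMT2A (−0.36, FDR 1.29e-06). The PC libraries lay apart at ASH1L (78.5 and 104 CPM, beside 116 and 120 in NC) and at KMT2A (172 and 232, beside 263 and 254). PC replicate 1 was the lower at both genes. The share called in PC was 39.4% of the Polycomb and 47.8% of the Trithorax list, beside 42.4% of all genes. Against NC, RES lowered HCFC1 and CTCF of the Trithorax list, POG lowered HCFC1, AFF1 and DOT1L with PSIP1 higher, and in DEG KDM6B alone was called (0.18, FDR 0.000638, lost in 2 of 11 alternative fits), which were 8.70%, 17.4% and 4.35% of the list.

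Genes of the retinoic acid pathway were called with serum, some with larger changes than any HOX gene. Of 21 listed genes 13 were tested, and 7 were higher and 2 lower (RDH10 and RXRA) in PC than in NC, with 5 to 9 higher over the alternative fits. The share called was 69.2%, beside 42.4% of all genes. DHRS3, a retinaldehyde reductase and feedback target of retinoic acid, had 35.4 and 35.7 CPM in PC, 1.11 and 0.603 in NC, 1.75, 1.45 and 1.84 in RES, 1.22, 0.816 and 1.20 in POG and 1.39 and 0.865 in DEG. It was higher by 5.37 on the log2 scale in PC (SE 0.165, FDR 7.78e-292) and by 0.97 in RES (SE 0.233, FDR 0.000115), and lower by −0.63 in POG than in RES (SE 0.187, FDR 0.00128). ALDH1A3, which makes retinoic acid, rose by 0.97 in PC (FDR 4.87e-64), and CRABP2, which carries it to the nucleus, by 0.49 (FDR 9.56e-06). RES changed 2 genes of the list (DHRS3 higher, NR2F2 lower by −0.20), POG 1 higher (ALDH1A3) and 4 lower (NR2F1, NR2F2, RARA and RARG), and DEG 1 higher (ALDH1A3) and 1 lower (NR2F2). These were 15.4%, 38.5% and 15.4% of the list, beside 11.2%, 14.5% and 9.63% of all genes. The POG calls of RARA and RARG were lost in 9 and 5 of 12 alternative fits, which gave 2 to 5 lower genes, and the DEG call of ALDH1A3 in 3 of 11. The DHRS3 call in RES was lost without NC replicate 2 (0.60, FDR 0.182).

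Between compounds, POG and RES differed at 30.3% of the Polycomb, 30.4% of the Trithorax, 46.2% of the retinoic acid and 11.1% of the TALE list, beside 27.9% of all genes. In POG 6 Polycomb genes were higher and 4 lower than in RES, led by EZH2 (0.22), CBX7 (0.22, FDR 6.15e-05) and PHF1 (0.21, FDR 9.84e-10), and 6 Trithorax genes were higher and 1 lower (KDM6A), led by KDM6B (0.19, FDR 5.50e-07). Of the retinoic acid list 1 was higher (ALDH1A3) and 5 were lower in POG, DHRS3 (above), NR2F1 (−0.46, FDR 1.55e-07), NR2F2, RARA and RARG (−0.19, FDR 0.00245), while PKNOX1 was the only TALE cofactor called (0.21, FDR 6.87e-05). DEG against RES gave 6 higher and 1 lower Polycomb genes, 3 higher Trithorax genes, 3 lower genes of the retinoic acid list (DHRS3, NR2F1 and RARA) and 3 higher TALE cofactors (PBX3, PKNOX1 and PKNOX2), or 21.2%, 13.04%, 23.1% and 33.3% of the lists beside 21.2% of all genes. The DHRS3 call in DEG against RES was lost in 6 of 12 alternative fits, among them DESeq2 (FDR 0.131), the quasi-likelihood test (FDR 0.0634) and the fit without DEG replicate 2 (−0.27, FDR 0.556). DEG against POG gave 1 called gene over these 4 lists, PSIP1 (−0.13, FDR 0.0423), beside 1.05% of all genes. It was lost in 7 of 12 alternative fits, among them the quasi-likelihood test (FDR 0.0544) and each fit without a POG or DEG library (−0.09, FDR 0.681 without DEG replicate 2).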

How the data were processed

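Messenger RNA of hFOB 1.19 osteoblasts was poly-A selected and sequenced as read pairs. The authors deposited raw read counts per gene, not normalized. Per their methods, STAR and also BWA MEM were named as aligners to hg38, and featureCounts assigned reads to Ensembl genes. Program versions, gene annotation, strandedness and the handling of reads with several hits were not given in the sources used here. The design had planned for 13 labelled samples, and 12 were used, since DEG replicate 3 was not analysed here. Of 43836 rows, 43214 matched a symbol.

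The filterByExpr function of edgeR, applied by group, kept 17092 genes for testing. Counts were scaled by TMM and tested with the exact test of edgeR 4.0.16 in R 4.3.3, with dispersions over all 12 libraries (common biological coefficient of variation 3.21%) and Benjamini-Hochberg adjustment over all genes tested. A gene was called at an FDR under 0.05. Standard errors and 95% intervals came from the quasi-likelihood fit. On simulated counts for 17092 genes with 200 changed 1.5-fold, 72% of the changed genes were recovered for PC against NC (16 unchanged genes called) and 75.5% for RES against NC (14). Every called HOX change against NC was smaller than 1.5-fold, so recovery at the size of those changes was not measured. Floors and depths cover counting error only, since reads carried no molecular identifiers. Alternatives were the quasi-likelihood test, DESeq2 1.42.0, other scalings, other filters, other dispersions and each library left out.

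Members, lists and tests were chosen with earlier results of these data known. Library values were given for members called in at least 1 of the 4 comparisons with NC and for members called between compounds. From each list of related genes, at most 3 called genes per comparison with a mean of at least 1 CPM were named, by size of change. HOXA10, HOXB5 and members called between compounds alone were given library values or ranges after their values had been seen, as were the further genes named from lists where a count was small. Replicate numbers were names in accession order. Some genes, 1 of the HOX clusters among them, and some sequences are not reported here, and counts of members and lists leave these genes out.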

Additional observations from a re-analysis of the deposited data

How the results depend on the processing

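No paired analysis was possible because the labels gave no replicate numbers that groups share. No gene called in the main or an alternative fit changed direction between them. The HOXA sums of PC (149.4 and 140.2 CPM) lay on both sides of those of NC (145.9 and 142.0 CPM). The sign of their ratio thus depended on the library left out, and the same held for HOXC. Of 8 HOX genes called in PC against NC, dispersions from the compared groups left 5, and leaving out 1 library gave 4 to 8. For RES against NC the count of 3 became 1 with DESeq2, 1 with plain library totals and 1 with no filter on low counts, and 0 to 3 when 1 library was left out. For POG against NC the count of 1 became 2 with dispersions from the compared groups and 0 to 1 with 1 library left out. For DEG against NC the count of 2 became 1 with the quasi-likelihood test, 1 with DESeq2, 1 with plain library totals and 1 with no filter, and 0 to 1 with 1 library left out. For DEG against RES the count of 2 became 1 with the quasi-likelihood test, 1 with DESeq2 and 1 with no filter, and 1 to 2 with 1 library left out. POG against RES gave 3 to 5 calls in place of 7 with 1 library left out. The count of 0 for DEG against POG and the count over the 5 groups (8 to 12) moved within their limits in the alternatives run. The cluster sums did so too, but their limit was the combined SD of the groups compared. Leaving out 1 library could not exceed that limit, so this check does not show that the sums are stable. The cause of these moves was not tested, but a fit without 1 library has fewer samples. Where a fit left NC, PC or DEG with 1 library, that library was assumed to vary like the other groups. With 2 or 3 libraries a group and 25 to 96 reads per library at HOXB5, small changes of low members stay below what this depth resolves.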
